A study of Mus musculus with 4 samples.

Results

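ATP-binding cassette (ABC) transporters were measured by microarray in 4T1Br cells, a line of mouse mammary carcinoma cells derived from 4T1 that seeds the brain. One group carried a control hairpin, shControl, and the other a hairpin that knocks down YTHDF3, a reader protein of N6-methyladenosine in messenger RNA, called shYTHDF3. The members were the probe sets that the platform annotation gives a single symbol of the ABC subfamilies A to G, leaving out the sterol exporters Abca1 and Abcg1: 46 probe sets of 23521 with a single symbol, each standing for a different gene among 22180 named genes. Both groups were lentivirally transduced and selected with puromycin, so the controls carry a vector and a drug selection too. Each group held 2 arrays. The line is 4T1 in the sample titles but 4T1Br in the other labels, which are followed here. The labels do not say how many hairpins were used or whether each array had its own culture; the spread that the p-values rest on may thus be technical. Values are the authors' RMA values, 1 per probe set and array, taken as log2, so a difference of 1 is a doubling. Levels of different probe sets cannot be ranked against each other, and each gene was therefore compared with itself across arrays and with a background level.

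ABC proteins couple the binding and hydrolysis of ATP to the movement of substrates across membranes. Most are pumps that export lipids, sterols, bile salts, conjugated metabolites or drugs, some serve mitochondria, lysosomes or peroxisomes, and the E and F subfamilies lack membrane-spanning domains and act on ribosomes and translation. P-glycoprotein, the MRP proteins of subfamily C and the breast cancer resistance protein Abcg2 export many anticancer drugs from tumour cells, and the same pumps in brain capillaries keep drugs out of the brain.

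No ABC gene passed the test between the hairpins. Of the 46 genes, 24 lay above background and were tested with limma, and 0 were called at an adjusted p under 0.05, against 2.73% of the 13056 genes tested. At an unadjusted p under 0.05 limma gave 6 of the 24, 3 higher and 3 lower in shYTHDF3, a share of 25.0% against 22.6% over all genes tested. The 2 groups did not overlap in 12 of the 24, against 54% of all genes tested; 6 were higher (28.3% of all) and 6 lower (25.7% of all). These shares of the members were close to the background. No tested member differed by as much as 2-fold, and the 95% intervals of the 24 differences, each taken singly, all lay between -0.65 and 0.75, inside a 2-fold change either way. Differences (shYTHDF3 minus shControl) ran from -0.34 in Abcc1 to 0.51 in Abca3 with a median of 0.023, beside a median of 0.0057 over all genes tested. With an intensity trend in limma's variance model, under which 10.9% of all genes tested were called, Abca3, Abcc1 and Abcf2 passed.

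Ythdf3, the targeted gene, read 8.98 and 8.81 (shControl) against 8.21 and 8.16 (shYTHDF3), a difference of -0.71 (SE 0.10, 95% interval -0.96 to -0.46, limma adjusted p = 0.0355) that left 61.1% of the shControl level; that call was lost when dim probe sets were kept in the fit (limma adjusted p = 0.0866) and with any 1 array left out (limma adjusted p = 0.141 to 0.188). Markers of the epithelial lineage were above background for 6 of 9 measured genes, whereas Epcam, Cldn7 and Esrp1 were not. Their summed linear level was 2702 to 2916 in shControl and 3723 to 3950 in shYTHDF3, but the genes did not all go one way. Krt7 was called higher, at 5.55 and 5.58 (shControl) against 6.99 and 7.15 (shYTHDF3) (SE of the difference 0.10, limma adjusted p = 0.00816). Krt8 and Krt18 differed by 0.31 and 0.57 and Krt19 by -0.53, none of them called (limma adjusted p = 0.151, 0.0527 and 0.0816), while the groups overlapped in Cdh1 (0.10) and Cldn4 (-0.027). Fibroblast markers, 7 of 8 above background, summed to 1012 to 1051 and 639 to 652, but these genes did not all go one way either. Pdgfrb was higher (0.21, limma adjusted p = 0.243) and Thy1 lower (-0.44, limma adjusted p = 0.135), neither of them called. The groups overlapped in Col1a1 (0.10), Col1a2 (-0.054) and Col3a1 (-0.23). Dcn was called lower, with a difference of -2.65 (SE 0.12, limma adjusted p = 0.00474), as was Pdgfra, with one of -0.61 (SE 0.10, limma adjusted p = 0.0471); with dim probe sets kept in the fit the calls of Krt7 and Dcn held and that of Pdgfra was lost (limma adjusted p = 0.0211, 0.0128 and 0.113). Of 6 endothelial markers only Cdh5 lay above background, at a mean of 4.34, and they summed to 87.9 to 90.9 and 89.2 to 90.8. Of 7 immune markers measured only Cd68 lay above background (sums of 235 to 274 and 182 to 187), and Rbfox3, Map2 and Mbp did so of 6 neural and glial ones (205 to 220 and 271 to 274). In bulk RNA, fewer cells of a type and less RNA per cell cannot be told apart. The part of these marker levels in the differences of ABC genes was not tested.

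The background level, the 95th percentile of the mean values of 1108 olfactory receptor probe sets, was 4.28. The share of members above it, 52.2%, compares with 58.9% of all named genes. Among the 24 members above background, 22 exceeded it on all 4 arrays. The exceptions were Abca8b, which was under it on 1 shYTHDF3 array, and Abcc9, which was under it on 1 shControl array. A further 6 members lay less than 1 log2 unit above background on average (Abca7, Abcb1a, Abcb9, Abcc6, Abcc10 and Abcg4).

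**Figure D1:**
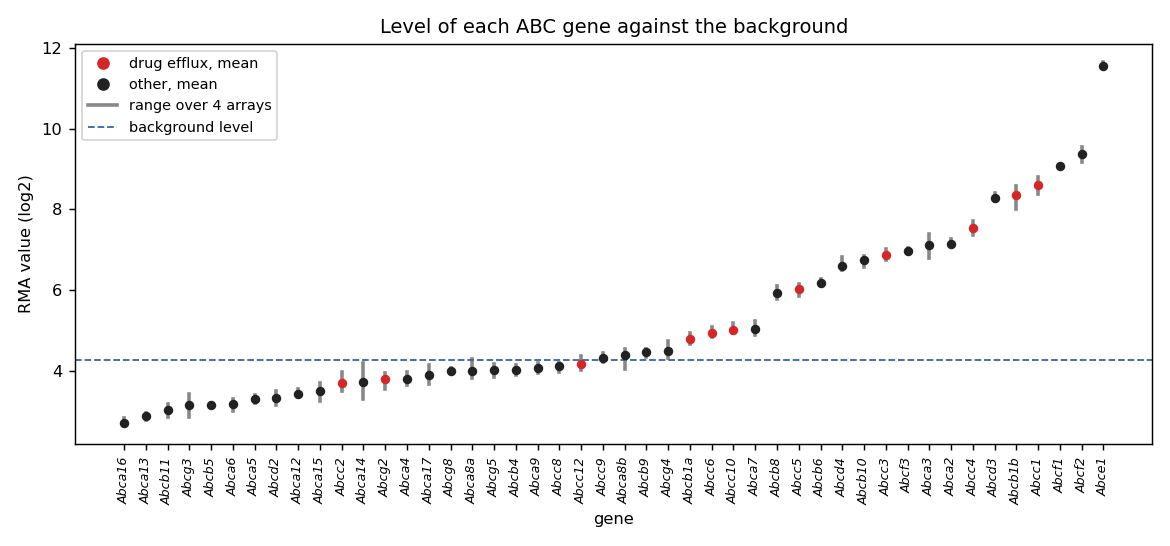
RMA value (log2, vertical axis) of the 46 ABC genes, sorted by their mean over the 4 arrays (points, red for drug efflux genes), with grey bars from the lowest to the highest array and a dashed line at the background level of 4.28. The means of 24 genes lie above the line and those of 22 below it; heights of different genes rest on different probes and do not rank their transcripts.

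Drug efflux genes were split between detected and undetected. Of 11 such genes, 8 lay above background and 3 did not. Limma called 0 of the 8, and at an unadjusted p under 0.05 it gave 2, both lower (10.4% of all genes tested were lower at that level). The mean was lower in shYTHDF3 for 6 of the 8, as it was for 6387 of all 13056 genes tested, with a median difference of -0.15 beside 0.0057 over all genes tested.

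Abcc1 encodes MRP1, which exports glutathione conjugates, leukotriene C4 and anticancer drugs. Its probe set (17323138) read 8.75 and 8.81 (shControl) against 8.50 and 8.38 (shYTHDF3). Both shYTHDF3 arrays lay under both shControl arrays, and the difference was -0.34 (SE 0.097, 95% interval -0.58 to -0.10, limma adjusted p = 0.122), or 79.0% of the shControl level. With an intensity trend its limma adjusted p was 0.0276, and over all alternatives it ran from 0.0257 to 0.436. Abcc4, whose product MRP4 exports cyclic nucleotides and prostaglandins besides drugs, read 7.66 and 7.71 (shControl) against 7.37 and 7.46 (shYTHDF3) on probe set 17309420. Its groups did not overlap either, and the difference was -0.27 (SE 0.094, 95% interval -0.50 to -0.039, limma adjusted p = 0.174), or 83.0% of the shControl level. The 95% intervals of both genes exclude 0 before adjustment over all genes, and neither passed after it.

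Mouse cells have a pair of genes, Abcb1a and Abcb1b, for the drug pump P-glycoprotein, which has a single gene in humans. Abcb1b, on probe set 17434555, was far above background on every array and read 8.58 and 8.40 (shControl) against 8.41 and 8.02 (shYTHDF3). The groups overlapped, shYTHDF3 array 2 being the lowest and shYTHDF3 array 1 lying between the shControl arrays, with a difference of -0.27 (SE 0.15, 95% interval -0.65 to 0.11, limma adjusted p = 0.351). That difference was -0.078 without shYTHDF3 array 2 and -0.47 without shYTHDF3 array 1. Abcb1a, on probe set 17434524, lay only a little above background at 4.83 and 4.67 (shControl) against 4.72 and 4.94 (shYTHDF3). Its groups overlapped too, with a difference of 0.083 (SE 0.12, 95% interval -0.21 to 0.38, limma adjusted p = 0.729). The Abcb1a difference was -0.00041 without shControl array 2 and -0.026 without shYTHDF3 array 2. These genes are close copies of each other, so how far either probe set also read the other transcript is uncertain.

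The RefSeq promoter table (build GRCm38.p6) held 37 of the 46 members. Abcc1, the member with the lowest difference, was not among them. The 250 bases before the annotated start are shown for the P-glycoprotein pair, which stood at different heights over background, and for Abcc4 and Abca3, a gene lower and a gene higher in shYTHDF3 by unadjusted p. Abcc4 has 2 starts in the table, and the first listed was taken. Sequences are 5′ to 3′ on the gene's strand, and capitals mark the motifs searched on both strands: the GC box with the letters GGGCGG, the CCAAT box, the TATA box with the letters TATAAA, and the core of the antioxidant response element with the letters TGACNNNGC. Neighbouring or overlapping matches run together.
Abcb1a (chr5:8566841-8567090, plus strand): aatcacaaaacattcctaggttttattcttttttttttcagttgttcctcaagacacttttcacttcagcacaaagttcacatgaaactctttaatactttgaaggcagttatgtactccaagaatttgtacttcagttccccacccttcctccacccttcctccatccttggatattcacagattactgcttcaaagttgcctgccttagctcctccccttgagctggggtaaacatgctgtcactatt
Abcb1b (chr5:8797897-8798146, plus strand): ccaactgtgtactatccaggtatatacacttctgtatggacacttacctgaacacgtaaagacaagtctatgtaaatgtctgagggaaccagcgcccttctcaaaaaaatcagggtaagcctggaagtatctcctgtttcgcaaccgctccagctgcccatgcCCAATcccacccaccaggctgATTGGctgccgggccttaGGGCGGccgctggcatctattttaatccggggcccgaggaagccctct
Abcc4 (chr14:118706220-118706469, minus strand): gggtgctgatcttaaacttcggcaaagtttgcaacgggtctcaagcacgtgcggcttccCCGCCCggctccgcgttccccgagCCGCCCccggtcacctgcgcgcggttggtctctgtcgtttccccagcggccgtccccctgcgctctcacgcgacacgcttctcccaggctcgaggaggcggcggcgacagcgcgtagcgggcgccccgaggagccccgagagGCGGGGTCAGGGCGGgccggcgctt
Abca3 (chr17:24351773-24352022, plus strand): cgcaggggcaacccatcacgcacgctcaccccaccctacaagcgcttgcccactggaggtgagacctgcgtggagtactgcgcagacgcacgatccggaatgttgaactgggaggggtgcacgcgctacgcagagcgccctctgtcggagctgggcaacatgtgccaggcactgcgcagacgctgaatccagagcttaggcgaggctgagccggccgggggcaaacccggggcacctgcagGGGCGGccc

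The Abcb1a window held none of the 4 motifs and 40.4% G and C, beside a median of 52.0% over the promoters of the table. The Abcb1b window held 1 GC box and 2 CCAAT boxes at 52.8% G and C. The Abcc4 window held 3 GC boxes and 1 antioxidant response core at 72.0% G and C, and the Abca3 window held 1 GC box at 67.6%. Among 27025 promoters of the same length, 32.9% held a GC box, 34.5% a CCAAT box, 13.0% a TATA box and 10.1% an antioxidant response core. Of the 37 members, 15 held a GC box, 12 a CCAAT box, 4 a TATA box and 3 an antioxidant response core. A match is a run of letters and not a measured binding site.

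Abcc3, encoding MRP3, an exporter of glucuronide conjugates and bile salts, read 6.83 and 6.86 (shControl) against 6.76 and 7.02 (shYTHDF3). The shYTHDF3 arrays lay on either side of the shControl arrays, and the difference was 0.040 (SE 0.12, 95% interval -0.25 to 0.33, limma adjusted p = 0.878); without shYTHDF3 array 2 it was -0.090. Abcc5, whose product MRP5 exports cyclic nucleotides and nucleotide analogues, read 6.16 and 6.03 (shControl) against 6.04 and 5.85 (shYTHDF3), with overlapping groups and a difference of -0.15 (SE 0.11, 95% interval -0.43 to 0.12, limma adjusted p = 0.467). Abcc10, encoding MRP7, an exporter of lipophilic drugs such as taxanes, read 5.01 and 5.18 (shControl) against 4.95 and 4.94 (shYTHDF3). Its shYTHDF3 arrays lay just under both shControl arrays, and its difference was -0.15 (SE 0.10, 95% interval -0.40 to 0.099, limma adjusted p = 0.427). Abcc6, best known for its role in preventing soft-tissue calcification, read 4.85 and 5.10 (shControl) against 4.85 and 4.96 (shYTHDF3), with overlapping groups and a difference of -0.068 (SE 0.12, 95% interval -0.37 to 0.23, limma adjusted p = 0.782); without shControl array 2 that was 0.060. For none of these 4 genes did the interval exclude 0.

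The other drug efflux genes were at background and were not tested. Abcg2, the breast cancer resistance protein, read 3.97 and 3.89 (shControl) against 3.57 and 3.84 (shYTHDF3) on probe set 17459014, under the background on all 4 arrays. Abcc2, encoding MRP2, the exporter of conjugates into bile, read 3.50 and 3.97 (shControl) against 3.67 and 3.66 (shYTHDF3), also under it throughout. Abcc12 read 4.18 and 4.38 (shControl) against 4.16 and 4.04 (shYTHDF3), with shControl array 2 alone above it. Values this low have no fold change.

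**Figure D2:**
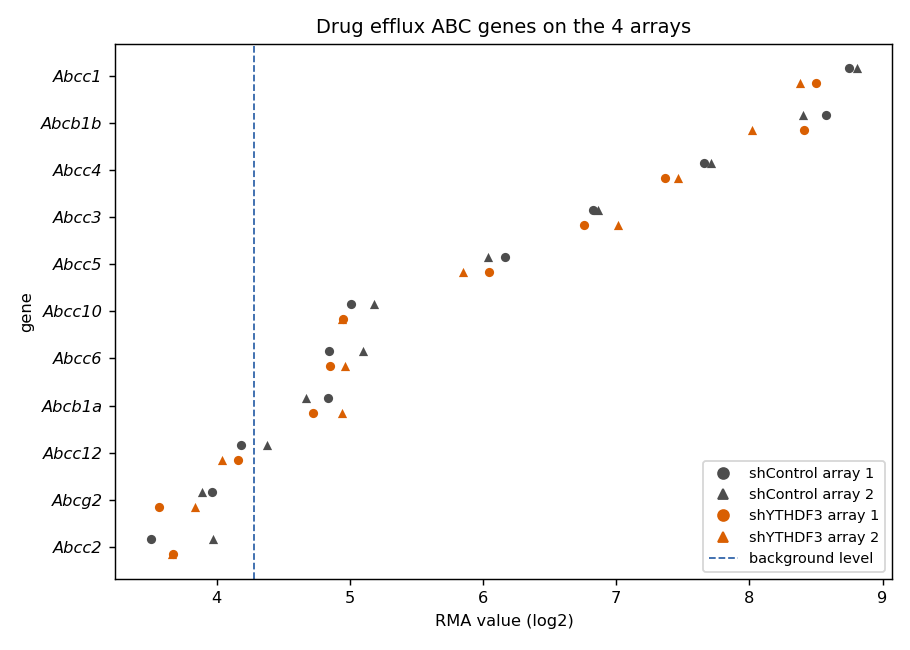
RMA value (log2, horizontal axis) of the 11 drug efflux genes on each array, shControl in grey and shYTHDF3 in orange, circles for array 1 and triangles for array 2; the dashed line is the background level of 4.28. Abcc1, Abcc4 and Abcc10 have both orange points left of both grey points, as do Abcg2 and Abcc12, whose means lie under the background. Of the 8 drug efflux genes tested, 3 (37.5%) had groups that did not overlap, all lower. Over all genes tested the share was 54% in either direction and 25.7% lower. The points of Abcg2, Abcc2 and Abcc12 lie left of the line, except for shControl array 2 of Abcc12.

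Transporters of lipids, sterols and bile salts were mostly at background: 5 of 22 lay above it. Limma called 0 of the 5, and at an unadjusted p under 0.05 it gave 2, both higher in shYTHDF3 (12.2% of all genes tested were higher at that level). Abca3, which loads phospholipids into lamellar bodies and is needed for lung surfactant, had the widest difference of all members. Its probe set (17334205) read 6.80 and 6.91 (shControl) against 7.40 and 7.34 (shYTHDF3), group means of 6.86 ± 0.075 and 7.37 ± 0.042 (SD, n = 2 each). Both shYTHDF3 arrays lay above both shControl arrays, the gap between the groups (0.43) being wider than the gap between the arrays of either group (at most 0.11). The difference was 0.51 (SE 0.095, 95% interval 0.28 to 0.75, limma adjusted p = 0.0549), or 143% of the shControl level. The limma adjusted p was 0.0149 with an intensity trend, 0.0120 with robust estimation added, 0.0463 with array medians made equal and 0.0476 with the background set at the median probe set. Those settings called 10.9%, 11.2%, 3.12% and 3.92% of all genes tested, in that order. Over all alternatives the limma adjusted p of Abca3 ran from 0.0120 to 0.229. In the RefSeq table Abca3 lies next to its relative Abca17, which was under background at 3.70 and 4.15 (shControl) against 3.86 and 3.90 (shYTHDF3).

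Abca7, a phospholipid transporter linked to phagocytosis, read 4.90 and 4.92 (shControl) against 5.12 and 5.23 (shYTHDF3). The groups did not overlap, with a difference of 0.27 (SE 0.094, 95% interval 0.035 to 0.50, limma adjusted p = 0.178). Abca2, a lipid transporter of late endosomes and lysosomes, read 7.11 and 7.10 (shControl) against 7.28 and 7.10 (shYTHDF3); shYTHDF3 array 1 was the high one, and the difference was 0.083 (SE 0.10, 95% interval -0.17 to 0.34, limma adjusted p = 0.682). Without shYTHDF3 array 1 it was -0.0073. Abcg4, a sterol exporter of neural cells, read 4.33 and 4.57 (shControl) against 4.39 and 4.74 (shYTHDF3), near background and with overlapping groups, a difference of 0.12 (SE 0.15, 95% interval -0.26 to 0.49, limma adjusted p = 0.704); it was -0.0035 without shControl array 1 and -0.061 without shYTHDF3 array 2. Abca8b, a lipid exporter, read 4.51 and 4.55 (shControl) against 4.04 and 4.51 (shYTHDF3), with shYTHDF3 array 1 alone low and a difference of -0.25 (SE 0.16, 95% interval -0.65 to 0.16, limma adjusted p = 0.423). Without that array it was -0.014, and the shYTHDF3 mean lay at background.

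The other 17 genes of this role were at background: Abca4, Abca5, Abca6, Abca8a, Abca9, Abca12, Abca13, Abca14, Abca15, Abca16, Abca17, Abcb4, Abcb5, Abcb11, Abcg3, Abcg5 and Abcg8. They include Abcb4 and Abcb11, which export phosphatidylcholine and bile salts into bile, and Abcg5 with Abcg8, whose proteins pair to export plant sterols. Abcb5 was sorted into this role, and Abcc6 and Abcc12 into drug efflux, by a list drawn up for this report. The counts per role depend on that sorting, which need not match what each protein carries. Abcg5 read 4.19 and 3.96 (shControl) against 3.84 and 4.12 (shYTHDF3), and Abcg8 read 4.07 and 4.01 (shControl) against 3.96 and 3.96 (shYTHDF3). Abcb11 read 2.93 and 3.18 (shControl) against 3.16 and 2.88 (shYTHDF3). All 12 of these values lie under the background level.

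Some members are neighbours on their chromosome. In the order of protein-coding genes of the RefSeq table, 15 members stood in 5 groups of adjacent members. The group of Abca8b, Abca8a, Abca9, Abca6 and Abca5 had 1 gene of 5 above background, and neither Abca14, Abca15 and Abca16 nor Abcg5 and Abcg8 had any. In the group of Abcb1a, Abcb1b and Abcb4, both P-glycoprotein genes were above background, while Abcb4 read 3.90 and 4.00 (shControl) against 4.16 and 4.07 (shYTHDF3). The members of such groups are related in sequence, so their probe sets need not be independent.

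Transporters of mitochondria and lysosomes were all above background, 5 of 5, and limma called 0; at an unadjusted p under 0.05 it gave 1, higher, beside 12.2% of all genes tested. The mean was higher in shYTHDF3 for all 5, though for Abcb6 it turned lower when quantile normalization was repeated (-0.011). It was higher for 6669 of all 13056 genes tested. The median difference of the 5 was 0.11, beside 0.0057 over all genes tested. Abcb8, of the mitochondrial inner membrane and tied to iron export, read 5.78 and 5.86 (shControl) against 6.04 and 6.11 (shYTHDF3). Its groups did not overlap, and the difference was 0.25 (SE 0.094, 95% interval 0.024 to 0.49, limma adjusted p = 0.190). Abcd4, which works with Lmbrd1 to bring vitamin B12 out of lysosomes, read 6.50 and 6.54 (shControl) against 6.82 and 6.58 (shYTHDF3), both shYTHDF3 arrays lying above both shControl arrays by a narrow margin, with a difference of 0.18 (SE 0.11, 95% interval -0.10 to 0.46, limma adjusted p = 0.402). Without shYTHDF3 array 1 that was 0.059. Abcb10, an inner-membrane protein needed for haem synthesis, read 6.83 and 6.58 (shControl) against 6.78 and 6.85 (shYTHDF3), shControl array 2 being the low one, and differed by 0.11 (SE 0.12, 95% interval -0.18 to 0.39, limma adjusted p = 0.634); without that array it was -0.017. Abcb6, a porphyrin transporter, read 6.19 and 6.17 (shControl) against 6.10 and 6.28 (shYTHDF3) and differed by 0.0053 (SE 0.10, 95% interval -0.25 to 0.26, limma adjusted p = 0.983), a value that turned negative without shControl array 2 (-0.0043) and without shYTHDF3 array 2 (-0.086) and when quantile normalization was repeated (-0.011). Abcb9, a lysosomal peptide transporter, read 4.50 and 4.35 (shControl) against 4.56 and 4.49 (shYTHDF3), close to background, and differed by 0.098 (SE 0.10, 95% interval -0.15 to 0.35, limma adjusted p = 0.607).

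Of the peroxisomal transporters, Abcd3, known as PMP70, which brings fatty acids into peroxisomes, read 8.40 and 8.27 (shControl) against 8.22 and 8.24 (shYTHDF3). Both shYTHDF3 arrays lay just under both shControl arrays, with a difference of -0.11 (SE 0.097, 95% interval -0.34 to 0.13, limma adjusted p = 0.560). Abcd2, its relative for very long chain fatty acids, was under background at 3.35 and 3.17 (shControl) against 3.52 and 3.27 (shYTHDF3). The sulfonylurea receptors, which are ABC proteins that regulate potassium channels, were at the edge of detection. Abcc9 read 4.22 and 4.29 (shControl) against 4.38 and 4.45 (shYTHDF3) and differed by 0.16 (SE 0.093, 95% interval -0.070 to 0.39, limma adjusted p = 0.368), its shControl mean of 4.25 lying under the background. Abcc8 read 4.21 and 4.21 (shControl) against 4.16 and 3.98 (shYTHDF3), under the background on all 4 arrays.

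The ABC proteins without membrane domains were all above background, 4 of 4, and limma called 0; at an unadjusted p under 0.05 it gave 1, lower, beside 10.4% of all genes tested. Abce1, which splits ribosomes after termination so that they can be used again, read 11.64 and 11.54 (shControl) against 11.51 and 11.53 (shYTHDF3), with a difference of -0.074 (SE 0.094, 95% interval -0.30 to 0.16, limma adjusted p = 0.690). Abcf1, which binds the initiation factor eIF2, read 9.03 and 9.06 (shControl) against 9.11 and 9.07 (shYTHDF3) and differed by 0.050 (SE 0.090, 95% interval -0.17 to 0.27, limma adjusted p = 0.787). In both genes the groups were separate by less than 0.02. Abcf2 read 9.54 and 9.47 (shControl) against 9.18 and 9.30 (shYTHDF3), both shYTHDF3 arrays lying clearly under both shControl arrays. Its difference was -0.27 (SE 0.097, 95% interval -0.50 to -0.027, limma adjusted p = 0.187), or 83.2% of the shControl level, and its limma adjusted p with an intensity trend was 0.0496. In the alternatives that kept every array and had no such trend, the limma adjusted p of Abcf2 ran from 0.173 to 0.339. Abcf3 read 7.03 and 6.96 (shControl) against 6.96 and 6.91 (shYTHDF3) and differed by -0.062 (SE 0.092, 95% interval -0.29 to 0.17, limma adjusted p = 0.739).

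**Figure D3:**
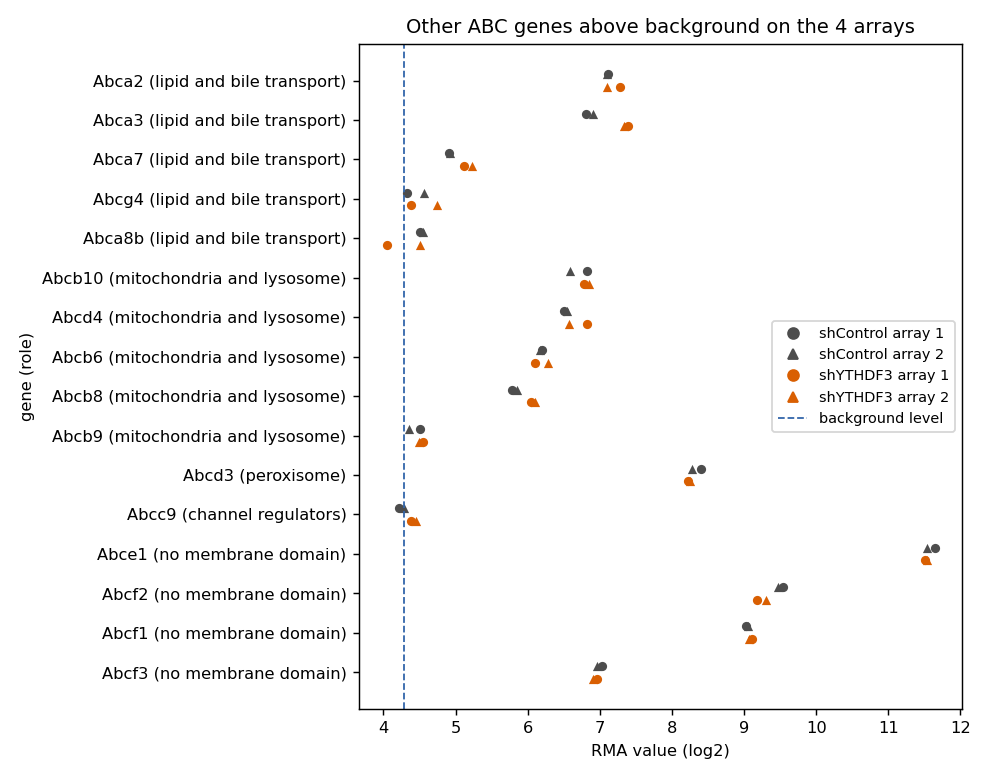
RMA value (log2, horizontal axis) on each array for the 16 ABC genes above background that are not drug efflux genes, with their role in brackets; shControl is grey, shYTHDF3 orange, array 1 a circle and array 2 a triangle, and the dashed line is the background level of 4.28. The shYTHDF3 points of Abca3 lie right of both shControl points by 0.43, and those of Abcf2 lie left of both.

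**Figure D4:**
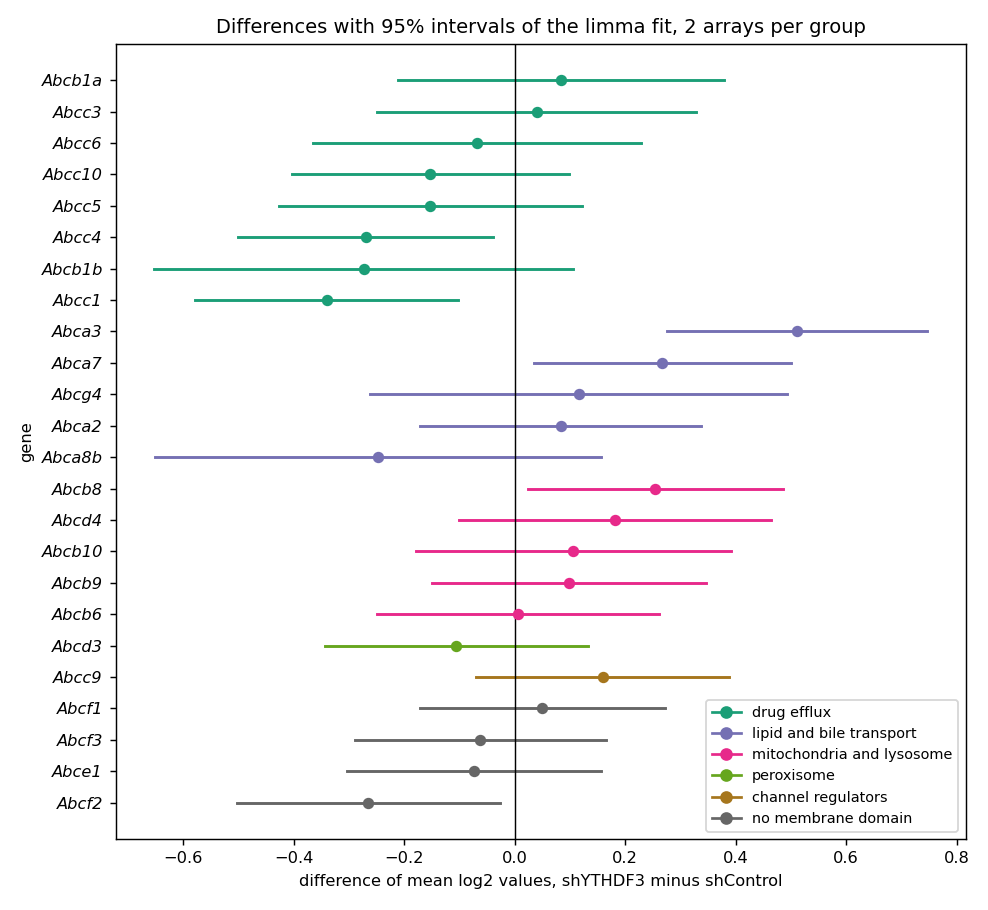
Difference of mean log2 values, shYTHDF3 minus shControl (horizontal axis, points), with its 95% interval from the limma fit (lines) for the 24 ABC genes tested, coloured by role, 2 arrays per group. The intervals of Abcc1, Abcc4 and Abcf2 lie left of 0 and those of Abca3, Abca7 and Abcb8 right of it; none of the 24 passed after adjustment over all 13056 genes tested.

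The other genes of the pathway were read from lists of related function. Some listed genes had no probe set with their symbol alone and were not measured. Of 17 regulators of ABC genes 15 were measured, Nr1h2 and Trp53 being absent. The counts were 16 of 18 drug carriers, 15 of 17 glutathione and conjugation enzymes and 13 of 16 partners of members. ABC proteins that carry other names were Tap1 and Tap2, which form the peptide transporter of antigen presentation, and the chloride channel gene Cftr, which was under background. Limma called 0 of the 2 tested, and at an unadjusted p under 0.05 it gave 1, higher, where 12.2% of all genes tested were. Tap1 differed by 0.32 (SE 0.11, limma adjusted p = 0.163) and Tap2 by 0.014 (SE 0.12, limma adjusted p = 0.961).

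Of the transcription factors and cofactors that control ABC genes, 15 were measured and 10 tested, and limma called 0; at an unadjusted p under 0.05 it gave 1 higher and 3 lower, 40.0% of the list beside 22.6% of all genes tested (12.2% higher and 10.4% lower). Arnt, the partner of the aryl hydrocarbon receptor and of the hypoxia-inducible factors, read 8.98 and 9.04 (shControl) against 8.51 and 8.31 (shYTHDF3), a difference of -0.60 (SE 0.11, limma adjusted p = 0.0527) that passed with an intensity trend (limma adjusted p = 0.00361). Vdr, the vitamin D receptor, read 7.21 and 7.11 (shControl) against 7.57 and 7.62 (shYTHDF3), a difference of 0.44 (SE 0.095, limma adjusted p = 0.0741) that also passed with that trend (0.0224). So did Ahr (-0.39, limma adjusted p = 0.0211) and Hif1a (-0.35, limma adjusted p = 0.0310), both lower. That made 4 of the 10 tested, beside 10.9% of all genes tested with that trend. The count for this list was 0 with no filter on dim probe sets, with repeated quantile normalization and with the replicate block. It was 1 with the background at the median probe set and with array medians made equal. The mean of a gene's probe sets and every named probe set tested also gave 1. The xenobiotic receptors Nr1i2 and Nr1i3, known as PXR and CAR, were under background, with means of 3.33 and 3.59.

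Among carriers for drug uptake and other multidrug carriers, 16 were measured and 12 tested. Limma called 0, and at an unadjusted p under 0.05 it gave 3 higher and 4 lower, 58.3% of the list beside 22.6% of all genes. Slc46a1, the proton-coupled folate transporter that also takes up methotrexate, differed by -0.56 (SE 0.13, limma adjusted p = 0.0856). Slco4a1, an organic anion transporter, differed by -0.52 (SE 0.13, limma adjusted p = 0.103). Both passed with an intensity trend, each at a limma adjusted p of 0.0494, as did Slco2a1, Slc29a1 and Slc31a2. Slco2a1 was lower (-0.32, limma adjusted p = 0.0110), while Slc29a1 (0.44, 0.0168) and Slc31a2 (0.45, 0.0158) were higher. These 5 of the 12 tested compare with 10.9% of all genes tested that were called with that trend. Without that trend, no carrier was called in any alternative that kept every array.

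The enzymes of glutathione and conjugation, which make and feed substrates of the MRP pumps, were the list with calls in the fit as reported. Of 13 tested, 2 were called higher and none lower, beside 1.28% higher and 1.45% lower over all genes tested. Gsta4, a glutathione transferase for lipid peroxidation products, read 7.89 and 7.75 (shControl) against 8.46 and 8.56 (shYTHDF3) and rose by 0.69 (SE 0.10, limma adjusted p = 0.0377). Gstm1, another glutathione transferase, read 7.17 and 7.21 (shControl) against 7.94 and 7.78 (shYTHDF3) and rose by 0.67 (SE 0.10, limma adjusted p = 0.0383). Gstm1 has close relatives in the genome, and how far its probe set also read them is uncertain. Both calls were lost when dim probe sets were kept in the fit (limma adjusted p = 0.0915 and 0.0930), and with any 1 array left out the limma adjusted p ran from 0.138 to 0.200 for Gsta4 and from 0.156 to 0.186 for Gstm1. At an unadjusted p under 0.05 limma gave 6 higher and 3 lower of the 13, or 69.2% beside 22.6% of all genes. With an intensity trend 7 of the 13 were called, beside 10.9% of all genes tested with that trend. Besides Gsta4 and Gstm1, these included Gclm (0.46, limma adjusted p = 0.00436), Gsr (0.33, 0.0139), Gstp1 (0.46, 0.00907) and Gstm2 (0.43, 0.0299), which were higher. Gsto1 was lower (-0.47, limma adjusted p = 0.0174).

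Partners of single members were measured for 13 genes and tested for 12. Limma called 0, and at an unadjusted p under 0.05 it gave 1 higher and 1 lower, 16.7% of the list beside 22.6% of all genes. Lmbrd1, which works with Abcd4 in lysosomes, differed by -0.30 (SE 0.097, limma adjusted p = 0.149). Fech, the last enzyme of haem synthesis, differed by 0.26 (SE 0.13, limma adjusted p = 0.301).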

How the data were processed

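Per the labels' protocols, total RNA of 4T1Br cells was labelled with biotin and read on Affymetrix arrays, 2 for shControl and 2 for shYTHDF3. The deposited values, 1 per probe set and array, are RMA values per the submitters' processing notes and were taken as log2 from their range; the sources used here state neither the log base nor the software. RMA makes the distributions of the arrays alike, so a shift of most genes one way would not be seen. Arrays have no depth, and their number limits the precision.

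Of 41345 probe sets, 23521 had 1 symbol in the platform annotation, 1814 several and 16010 none; 23328 took RefSeq's current symbol by Entrez identifier. Each member had 1 probe set; other genes took the probe set with the highest mean. Genes with a mean above the background (4.28) were tested with limma 3.58.1 (lmFit, eBayes) in R 4.3.3. Tests were two-sided and adjusted by Benjamini-Hochberg over all 13056; SE and intervals are limma's moderated ones. The fit was also run on simulated independent arrays with variances drawn from its own model. Such data cannot show whether the real arrays were independent. Alternatives changed the filter, the variance model, the normalization, the choice of probe sets and the replicate block, or left out 1 array, taking the spread from the group with both arrays left. Every member is named. By rule, other genes were the 3 furthest risers and 3 furthest fallers called in each list, at most. In a list with none called, the 2 largest absolute differences were taken. A few further genes of the lists were named beside these. The members, lists and rule were chosen with earlier results of these data known. Figures used matplotlib 3.10.9 in Python 3.11.15.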

Additional observations from a re-analysis of the deposited data

How the results depend on the processing

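The count of ABC genes called was 0 by limma as reported and with no filter on dim probe sets, repeated quantile normalization, the mean of a gene's probe sets, every named probe set tested, the replicate block and each array left out; it was 1 with the background set at the median probe set, 1 with array medians made equal, 3 with an intensity trend and 3 with that trend and robust estimation. The count at an unadjusted p under 0.05 was 6 as reported and 2 to 3 with 1 array left out, fits that have fewer residual degrees of freedom. The median difference of 0.023 was -0.061 without the filter, over all 46 genes, and -0.059 to 0.011 with 1 array left out. Over all genes tested the number called, 356 as reported, was 43 without the filter, 1426 with the trend, 1465 with robust estimation added, 51 with the replicate block and 0 to 12 with 1 array left out. The shared replicate numbers do not show pairing: deviations of same-numbered arrays correlated at -0.066 over the genes tested, and with the replicate number as a block limma gave 4 ABC genes at an unadjusted p under 0.05. That block also ended the calls of Ythdf3 (limma adjusted p = 0.0758), Gsta4 (0.0878) and Gstm1 (0.0869), leaving 0 of the glutathione list called.

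Of the 24 tested ABC genes, 17 kept their direction in each of the 13 alternatives that tested them; Abca8b and Abcc9 were not tested with the background at the median probe set. The others crossed 0 with 1 array left out. In those fits Abca2 ran from -0.0073 to 0.17, Abcb10 from -0.017 to 0.23 and Abcb1a from -0.026 to 0.19. Abcb6 ran from -0.086 to 0.097, Abcc3 from -0.090 to 0.17, Abcc6 from -0.20 to 0.060 and Abcg4 from -0.061 to 0.29. Tap2 ran from -0.10 to 0.13. With quantile normalization once more Abcb6 was -0.011 and Tap2 -0.0023. The cause was not tested. The signal over background limits the account: 22 ABC genes at background gave no difference to test.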
